A study of Mus musculus with 10 samples.

Results

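Dual specificity phosphatases that act on mitogen-activated protein (MAP) kinases were followed in RNA of muscle stem cells, the cells that repair skeletal muscle. The 8 genes considered, Dusp1, Dusp4, Dusp5, Dusp6, Dusp8, Dusp10, Dusp14 and Dusp16, were taken by symbol, and all 8 are among the 12803 genes of the expression table. Cells of young male C57BL/6 mice had been sorted from limb muscles by flow cytometry as CD45-, CD31-, Sca1- and VCAM+ cells. The 10 libraries form 3 groups, with the cells of 1 animal in each library. Tubastatin A cells (n = 4) were cultured for 24 h in DMSO and Tubastatin A, which inhibits the deacetylase HDAC6, at 40 µM. Vehicle cells (n = 3) were cultured for 24 h with an equal volume of DMSO. Both were grown in medium with 10% horse serum on matrix-coated plastic. Fresh cells (n = 3) were frozen at 0 h, directly after the sort, and carry the treatment label vehicle although they were not cultured.

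MAP kinases of the ERK, JNK and p38 families are switched on when a kinase phosphorylates a threonine and a tyrosine in their activation loop. Dual specificity phosphatases remove both phosphates and so switch the kinases off. Many of these phosphatase genes are themselves induced by the kinases they restrain, which makes their transcripts part of a feedback loop. In muscle stem cells, restraint of ERK signalling is known to hold cells in quiescence, and p38 signalling is known to drive activation.

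Promoter sequences of 7 of the 8 genes were found in RefSeq (build GRCm38.p6), each reaching from 250 bases before the start site to 50 bases after it. Dusp4 had no entry. The sequences shown are those of Dusp1 and Dusp8, the genes with the widest range of levels, and of Dusp5. In Dusp1 (chr17:26508423-26508722, minus strand) and Dusp8 (chr7:142095235-142095534, minus strand) the capitals mark the cyclic AMP response element (CRE, letters TGACGTCA). In Dusp5 (chr19:53528895-53529194, plus strand) they mark 2 adjacent CArG boxes, the sequence bound by serum response factor.
Dusp1: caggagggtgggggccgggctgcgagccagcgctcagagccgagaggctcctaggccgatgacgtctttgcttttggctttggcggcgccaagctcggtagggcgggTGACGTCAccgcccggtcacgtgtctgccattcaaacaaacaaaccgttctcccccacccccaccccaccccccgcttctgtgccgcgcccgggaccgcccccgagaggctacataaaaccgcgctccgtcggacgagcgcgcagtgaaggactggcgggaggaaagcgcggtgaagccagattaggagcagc
Dusp8: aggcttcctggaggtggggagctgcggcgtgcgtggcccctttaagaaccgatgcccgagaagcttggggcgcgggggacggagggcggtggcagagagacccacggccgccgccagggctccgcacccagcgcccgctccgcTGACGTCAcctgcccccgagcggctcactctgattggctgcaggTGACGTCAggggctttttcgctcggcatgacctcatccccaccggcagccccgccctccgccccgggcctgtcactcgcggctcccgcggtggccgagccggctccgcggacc
Dusp5: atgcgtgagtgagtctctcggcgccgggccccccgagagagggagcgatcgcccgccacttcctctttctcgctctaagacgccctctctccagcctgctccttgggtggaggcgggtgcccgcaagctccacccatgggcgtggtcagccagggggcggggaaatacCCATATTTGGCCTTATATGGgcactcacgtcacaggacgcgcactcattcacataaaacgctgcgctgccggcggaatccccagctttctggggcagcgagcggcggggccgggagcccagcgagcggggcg

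The CRE is read by factors of the CREB and ATF family. It stood once in the Dusp1 promoter, with its first base at position -143 from the start site. The Dusp8 promoter held it at 2 positions, -107 and -63. No other promoter of the 7 held these letters, whereas 3.01% of the 12770 promoters of genes in the table did, counting both strands. The CArG boxes of Dusp5 began at -82 and -72, and 1.32% of the table's promoters held at least 1 such box. The short form TGACG, which is also part of every full CRE, occurred in 4 of the 7 promoters (Dusp1, Dusp5, Dusp8 and Dusp16), against 30.9% of the table's promoters. The E-box, CANNTG, the element of MyoD and related factors, occurred in 5 of 7, against 63.5%. The ETS core CCGGAA was found in Dusp14 alone (27.0% of the table's promoters) and the NF-kB element GGGNNTTCC in Dusp5 alone (7.22%). The AP-1 element TGANTCA was in none of the 7, against 5.08%, and none of the 7 motifs was in the Dusp10 window.

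**Figure D1:**
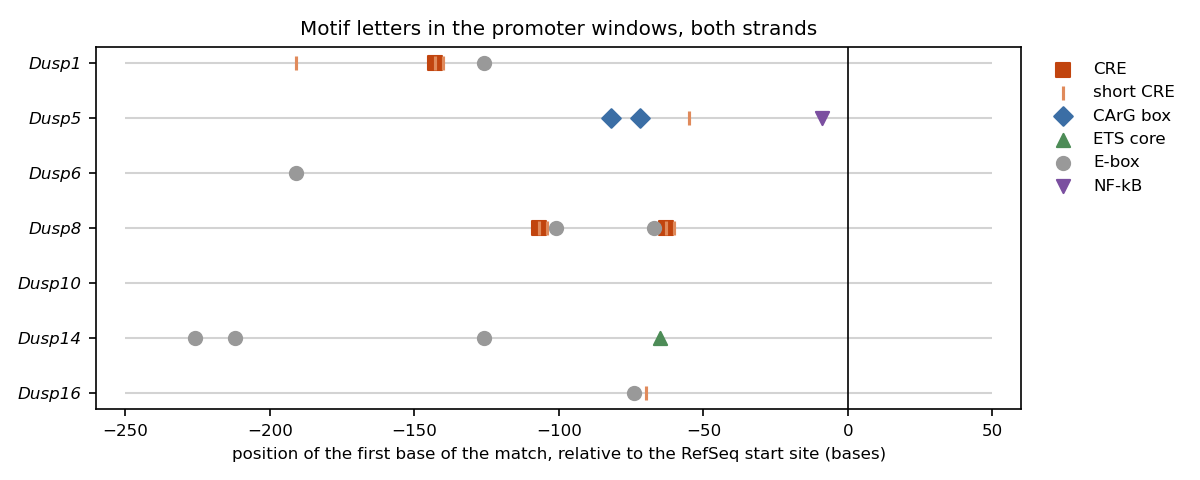
Positions of motif matches in the promoter windows of 7 phosphatase genes, with the distance from the RefSeq start site in bases on the x axis and 1 gene per line. CRE matches stand in Dusp1 and Dusp8 only, paired CArG boxes in Dusp5 only, and Dusp10 has no match.

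Levels are given in RPKM, that is reads relative to gene length in kb and to a library size that the authors had scaled. A log2 change is a difference in log2(RPKM + 1), followed by its standard error (SE), and adjusted p-values come from limma over all genes, with calls at an adjusted p under 0.05. The libraries held 37516875 to 55264487 reads in the table, and 1 read in a gene of 1 kb was worth 0.016 to 0.0339 RPKM. The values of the 8 genes rested on 176 reads, for Dusp8 in a vehicle library, to 156087 reads, for Dusp1 in a fresh library. The summed RPKM of 10 muscle stem cell markers lay between 786.4 and 864.2 in Tubastatin A, 1556 and 1781 in vehicle and 2518 and 3636 in fresh libraries. Endothelial markers (9 of 9 measured) summed to 6.25 to 6.96, 3.34 to 4.55 and 47.7 to 58.4 RPKM in those groups, and the 3 immune markers of 9 in the table to 2.60 to 4.13, 0.722 to 0.954 and 6.01 to 9.81 RPKM. Between the cultured groups the endothelial sum rested on Tek (mean 4.21 RPKM in Tubastatin A and 0.879 RPKM in vehicle), with 1 of the 9 genes higher, 1 lower and 7 not called, and the immune sum on Cd68 (2.96 and 0.759 RPKM). The part of such cells in the phosphatase values was not tested. Of the 10 muscle stem cell markers, 2 were higher, 7 lower and 1 not called with Tubastatin A relative to vehicle. Relative to fresh cells 9 of the 10 were lower with Tubastatin A, among them the sort marker Vcam1 by 5.08. Myod1 carried most of the sum where Tubastatin A replicate 1 is concerned, at 501.2 of 786.4 RPKM. Hdac6, the gene of the inhibited enzyme, passed in no comparison (adjusted p = 0.581 for Tubastatin A against vehicle, 0.0739 for vehicle against fresh and 0.173 for Tubastatin A against fresh).

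With Tubastatin A, 5 of the 8 phosphatase genes were higher than with vehicle, 2 were lower, and Dusp6 did not pass. Those that rose were Dusp1, Dusp4, Dusp5, Dusp8 and Dusp16, and those that fell were Dusp10 and Dusp14. Over all genes 29.6% were called higher and 29.7% lower, so calls were frequent in either direction. The median log2 change of the 8 genes was 0.61, beside 0.02 for all genes. In vehicle against fresh cells, none of the 8 rose, 7 fell and Dusp14 did not pass, where 32.0% of all genes were called higher and 35.0% lower, and the median was -1.13 beside -0.03. In Tubastatin A against fresh cells, none rose, 5 fell (Dusp1, Dusp6, Dusp8, Dusp10 and Dusp16) and 3 did not pass, where 29.8% of all genes were called higher and 35.2% lower, and the median was -1.38 beside -0.03. The comparisons share their libraries and are not independent of each other. The 8 genes were chosen with earlier results of these data known. Dusp2, Dusp7 and Dusp9, related phosphatases outside the set, were called lower with Tubastatin A than with vehicle. In vehicle against fresh cells Dusp7 and Dusp9 rose and Dusp2 fell, so the counts and medians depend on which genes are included. In these bulk libraries, fewer cells that express a gene and less of its RNA per cell cannot be told apart.

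**Figure D2:**
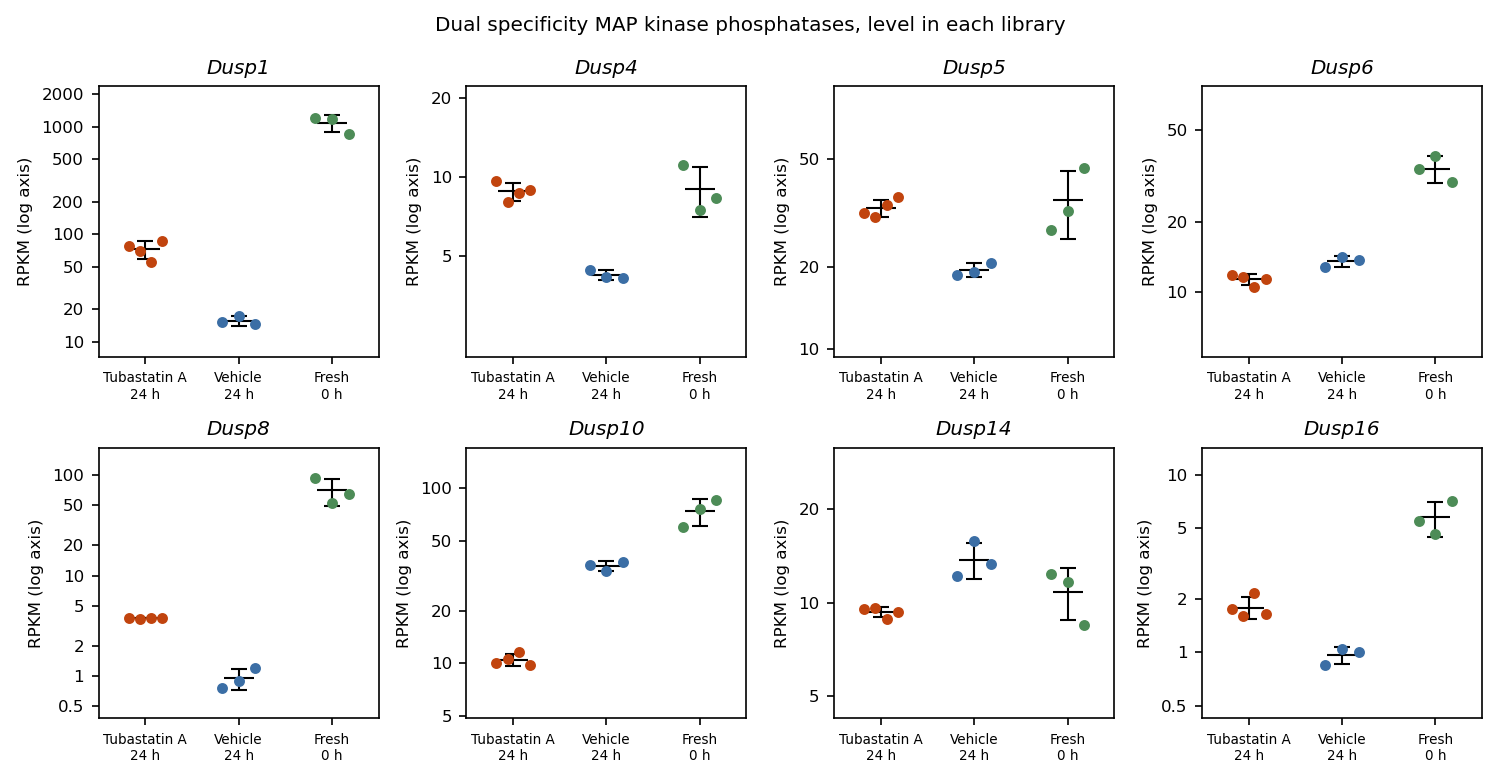
Level of each of the 8 genes in RPKM (log axis, scaled per gene), with 1 point per library and the mean ± SD of Tubastatin A (n = 4), vehicle (n = 3) and fresh (n = 3) cells. Tubastatin A and vehicle libraries are separate for every gene shown, while Tubastatin A libraries overlap fresh ones for Dusp4, Dusp5 and Dusp14. Between Tubastatin A and vehicle, 29.6% of all genes were called higher and 29.7% lower. The share of all genes without overlap was not counted, so separation is not shown to be particular to these genes.

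Dusp1 encodes MKP-1, a nuclear phosphatase of p38, JNK and ERK and an immediate early gene. Its level was 78.5, 69.6, 55.0 and 87.1 RPKM in Tubastatin A libraries, 15.1, 17.5 and 14.5 RPKM in vehicle libraries and 1199, 1188 and 859.8 RPKM in fresh libraries. The 3 groups did not overlap: fresh libraries stood far above both cultured groups, and every Tubastatin A library stood above every vehicle library. Dusp1 rose by 2.12 with Tubastatin A relative to vehicle (SE 0.17, adjusted p = 1.02e-06), a 4.62-fold higher mean RPKM. Relative to fresh cells it fell by 6.01 in vehicle (SE 0.19, adjusted p = 2.31e-10), a 69.0-fold lower mean, and by 3.88 in Tubastatin A cells (SE 0.17, adjusted p = 4.62e-09), a 14.9-fold lower mean. By rank from the lowest, its fall in vehicle was number 29 of 12803 log2 changes. Within its library, Dusp1 lay at the median percentile 95.1 of all genes in Tubastatin A, 72.6 in vehicle and 99.6 in fresh cells. The Dusp1 gene (mm10, chr17:26505590-26562128, minus strand) shares 11 exon bases with Ergic1 on the opposite strand, and use of strand in the counting is not stated.

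Dusp8, which dephosphorylates JNK and p38, followed the same order of groups at a lower level. It stood at 3.77, 3.72, 3.78 and 3.78 RPKM in Tubastatin A libraries, 0.753, 0.882 and 1.19 RPKM in vehicle libraries and 94.5, 52.5 and 65.6 RPKM in fresh libraries. No groups overlapped. The coefficient of variation was 0.787% in Tubastatin A, 23.7% in vehicle and 30.4% in fresh libraries. The Tubastatin A values rested on 833 to 1145 reads, whose counting error alone is wider than 0.787%. The gene rose by 1.30 with Tubastatin A relative to vehicle (SE 0.17, adjusted p = 4.45e-05), and its mean RPKM was 4.00-fold higher. With voom on recovered reads, where no pseudocount of 1 RPKM presses down low levels, this change was 2.03 (SE 0.27), and with a pseudocount of 5 it was 0.56. Relative to fresh cells, Dusp8 fell by 5.17 in vehicle (SE 0.18, adjusted p = 6.18e-10) and by 3.87 in Tubastatin A cells (SE 0.17, adjusted p = 4.09e-09), with means 75.3-fold and 18.8-fold lower. Among the 8 genes, Dusp1 and Dusp8 were each other's closest in pattern. Their difference, measured as described below, was 0.47, wider than 0.28 for Dusp4 and Dusp5 and 0.38 for Dusp6 and Dusp16. Of the genes with a promoter entry, which Dusp4 lacks, only Dusp1 and Dusp8 hold the full CRE shown above. A link between the element and the levels was not tested. Dusp8 shares 66 of its 4870 exon bases with an annotated gene on the opposite strand that is not in the table.

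Dusp10 encodes MKP-5, also a phosphatase of JNK and p38, whose loss in mice is known to improve muscle regeneration. It moved against Dusp1 and Dusp8 under Tubastatin A. The libraries stood at 10.0, 10.6, 11.5 and 9.73 RPKM with Tubastatin A, 36.5, 33.4 and 38.1 RPKM with vehicle and 59.7, 76.0 and 85.0 RPKM in fresh cells. Every Tubastatin A library was lower than every vehicle library, and every vehicle library lower than every fresh one. Dusp10 fell by 1.69 with Tubastatin A relative to vehicle (SE 0.13, adjusted p = 4.76e-07), a 3.43-fold lower mean RPKM. Its log2 change was -0.998 in vehicle against fresh (SE 0.13, adjusted p = 3.69e-05) and -2.69 in Tubastatin A against fresh (SE 0.13, adjusted p = 6.92e-09), a 7.01-fold lower mean. The first of these was -0.40 when libraries were scaled by the reads in the table (adjusted p = 0.0199). The ratio of Dusp1 to Dusp10 RPKM, in which the scaling of a library cancels, was 4.76 to 8.95 in Tubastatin A, 0.380 to 0.523 in vehicle and 10.1 to 20.1 in fresh libraries. Thus Dusp10 was the more abundant of the pair in all 3 vehicle libraries and Dusp1 in the other 7. No exon bases of Dusp10 (mm10, chr1:184013302-184075636, plus strand) are shared with another annotated gene.

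Dusp16 encodes MKP-7, a phosphatase of JNK and p38 that shuttles between nucleus and cytoplasm, and was the least abundant of the 8 genes in Tubastatin A and fresh cells. It reached 1.75, 1.61, 2.15 and 1.63 RPKM with Tubastatin A, 0.850, 1.04 and 1.01 RPKM with vehicle and 5.52, 4.62 and 7.11 RPKM in fresh cells. Again no groups overlapped, in the order vehicle, Tubastatin A, fresh from low to high. It rose by 0.50 with Tubastatin A relative to vehicle (SE 0.13, adjusted p = 0.00716), and fell relative to fresh cells by 1.76 in vehicle (SE 0.14, adjusted p = 5.34e-07) and by 1.26 in Tubastatin A cells (SE 0.13, adjusted p = 6.26e-06). Because its level is near the pseudocount, the size of the first change was 0.82 with a pseudocount of 0.1, 0.18 with one of 5 and 0.88 with voom, all past the threshold. With a pseudocount of 5 the changes relative to fresh cells were -0.84 in vehicle and -0.66 in Tubastatin A cells, and Tubastatin A against fresh gave -0.73 with libraries scaled by the reads in the table.

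Dusp4 encodes MKP-2, a nuclear phosphatase of ERK and JNK. Its level was 9.69, 8.04, 8.67 and 8.91 RPKM in Tubastatin A libraries, 4.44, 4.16 and 4.13 RPKM in vehicle libraries and 11.1, 7.49 and 8.29 RPKM in fresh libraries. Vehicle libraries stood below all others, and the Tubastatin A values lay within the range of the fresh ones. It rose by 0.90 with Tubastatin A relative to vehicle (SE 0.13, adjusted p = 9.87e-05), a 2.08-fold higher mean RPKM, and fell by 0.91 in vehicle relative to fresh (SE 0.14, adjusted p = 1.09e-04). With a pseudocount of 5 these changes were 0.58 and -0.59, and the second was -0.38 with libraries scaled by the reads in the table (adjusted p = 0.026). Between Tubastatin A and fresh cells the log2 change was -0.01 (95% interval -0.29 to 0.28, adjusted p = 0.97).

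Dusp5, a nuclear phosphatase of ERK, had the same order of groups. The values were 31.7, 30.8, 33.8 and 36.2 RPKM with Tubastatin A, 18.7, 19.2 and 20.8 RPKM with vehicle and 27.5, 32.3 and 46.6 RPKM in fresh cells. Vehicle libraries were again below all others, and fresh libraries spread on both sides of the Tubastatin A libraries. Dusp5 rose by 0.73 with Tubastatin A relative to vehicle (SE 0.15, adjusted p = 0.00152) and fell by 0.79 in vehicle relative to fresh (SE 0.16, adjusted p = 0.00106), a fall that did not pass when libraries were scaled by the reads in the table (-0.21, adjusted p = 0.27). The Tubastatin A to fresh change was -0.06 (95% interval -0.40 to 0.27, adjusted p = 0.74). Under that scaling Dusp4 and Dusp5 were both called higher in Tubastatin A than in fresh cells, at 0.61 and 0.60. Dusp5 (mm10, chr19:53529109-53542431, plus strand) shares 547 of its 2473 exon bases with an annotated antisense gene that is not in the table.

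Dusp6 encodes MKP-3, the cytoplasmic phosphatase of ERK whose transcript is a standard readout of ERK activity. It was measured at 11.9, 11.5, 10.5 and 11.3 RPKM with Tubastatin A, 12.8, 14.1 and 13.7 RPKM with vehicle and 33.7, 38.6 and 29.6 RPKM in fresh cells. The cultured groups lay close together without overlap, and both were far below the fresh libraries. Tubastatin A against vehicle gave a log2 change of -0.24 (SE 0.11, 95% interval -0.48 to -0.01) that missed the threshold (adjusted p = 0.0732). It passed when only those 2 groups were fitted (adjusted p = 0.0137) and without fresh replicate 2 or 3 (adjusted p = 0.027 and 0.0415), at the same size. Relative to fresh cells Dusp6 fell by 1.26 in vehicle (SE 0.12, adjusted p = 1.38e-06) and by 1.50 in Tubastatin A cells (SE 0.11, adjusted p = 2.2e-07). With libraries scaled by the reads in the table these changes were -0.68 and -0.85, both past the threshold.

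Dusp14 encodes MKP-6, a small phosphatase without the kinase-binding domain of the larger members. Its libraries had 9.59, 9.66, 8.88 and 9.32 RPKM with Tubastatin A, 12.2, 15.8 and 13.3 RPKM with vehicle and 12.4, 11.7 and 8.51 RPKM in fresh cells. Vehicle was above Tubastatin A in every library, whereas fresh libraries overlapped both cultured groups. It fell by 0.51 with Tubastatin A relative to vehicle (SE 0.13, adjusted p = 0.00665). Vehicle against fresh gave 0.33 (95% interval 0.01 to 0.64, adjusted p = 0.064) and Tubastatin A against fresh gave -0.18 (95% interval -0.47 to 0.11, adjusted p = 0.26). The first of these passed under 3 other scalings of the libraries and without vehicle replicate 1, fresh replicate 1 or fresh replicate 2, and the second without fresh replicate 3 (-0.33, adjusted p = 0.0299). With libraries scaled by the reads in the table the second passed in the other direction (0.44, adjusted p = 0.00853), so this gene's place relative to fresh cells rests on single libraries and the scaling.

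**Figure D3:**
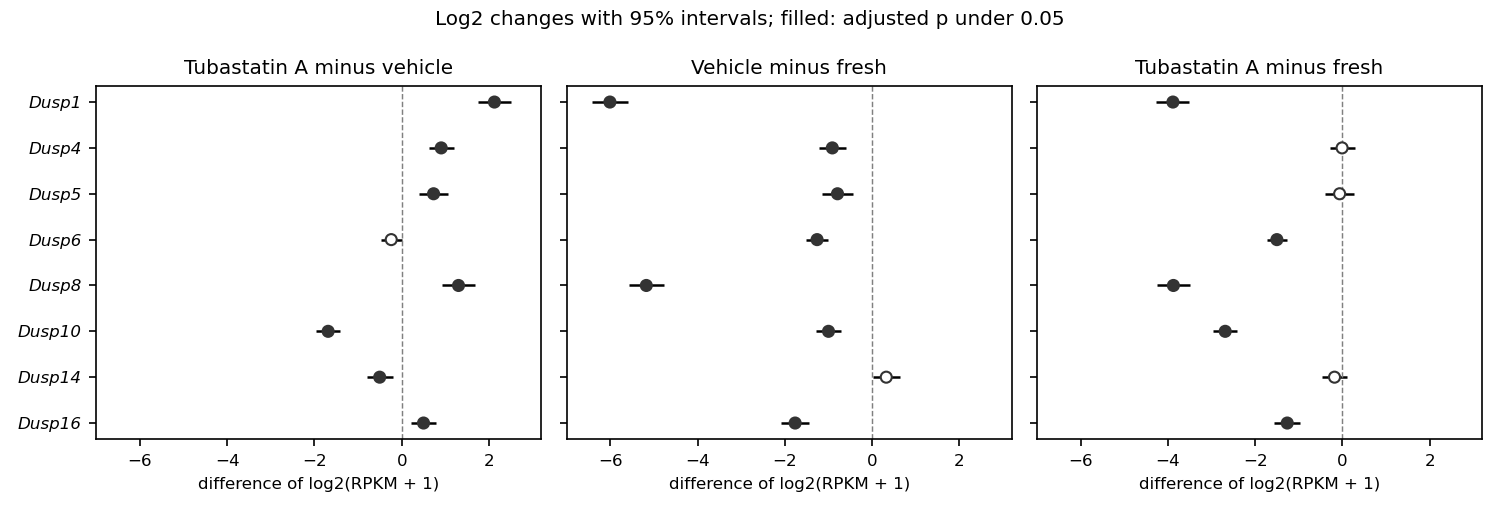
Log2 change of each gene in the 3 comparisons (x axis, difference of log2(RPKM + 1), points with 95% intervals), filled where the adjusted p was under 0.05. Tubastatin A against vehicle shows 5 filled points right of 0 and 2 left of it, vehicle against fresh shows 7 left of 0, and Tubastatin A against fresh shows 5 left of 0.

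The make-up of the phosphatase transcripts differed between the groups. The 8 genes summed to 151.2 ± 14.5 RPKM in Tubastatin A, 104.7 ± 2.94 RPKM in vehicle and 1322 ± 183.6 RPKM in fresh cells (SD, n = 4, 3 and 3). Dusp1 made up 47.6% ± 4.77 of that sum in Tubastatin A, 15.0% ± 1.46 in vehicle and 81.6% ± 3.62 in fresh cells. Dusp10 made up 7.02% ± 1.22, 34.4% ± 2.52 and 5.72% ± 1.78 in the same groups. Without Dusp1, the other 7 summed to 78.7 ± 2.08, 89.0 ± 3.01 and 239.4 ± 14.4 RPKM, so the higher sum of Tubastatin A over vehicle cells lay in Dusp1. The percentages, unlike the sums, do not depend on how libraries are scaled.

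In Tubastatin A cells the order of mean RPKM was Dusp1, Dusp5, Dusp6, Dusp10, Dusp14, Dusp4, Dusp8 and Dusp16, where Dusp6 overlapped Dusp10 and Dusp14 overlapped Dusp4. In vehicle cells it was Dusp10, Dusp5, Dusp1, Dusp14, Dusp6, Dusp4, Dusp16 and Dusp8, where Dusp1 and Dusp14, Dusp14 and Dusp6, and Dusp16 and Dusp8 overlapped. In fresh cells it was Dusp1, Dusp10, Dusp8, Dusp5, Dusp6, Dusp14, Dusp4 and Dusp16, where Dusp10 and Dusp8, Dusp5 and Dusp6, and Dusp14 and Dusp4 overlapped.

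**Figure D4:**
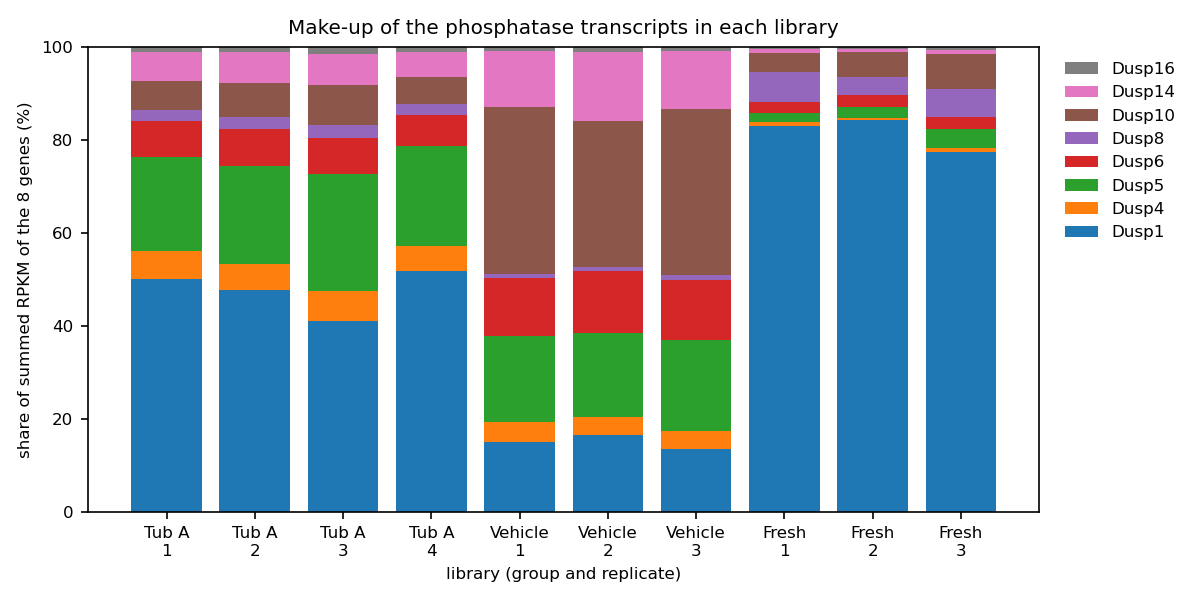
Share of each gene in the summed RPKM of the 8 phosphatase genes (y axis, percent), with 1 bar per library. Dusp1 fills 40.9% to 51.8% of the bar in Tubastatin A, 13.6% to 16.5% in vehicle and 77.4% to 84.2% in fresh libraries, and Dusp10 is widest in vehicle libraries.

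The levels of other dual specificity phosphatases, 15 of 18 measured, moved in both directions. With Tubastatin A relative to vehicle 3 rose and 7 fell, in vehicle relative to fresh 5 rose and 5 fell, and in Tubastatin A relative to fresh 4 rose and 5 fell. When scaled by the reads in the table, the last 2 counts were 7 and 1, and 9 and 3. Dusp7 and Dusp9 are the closest relatives of Dusp6, cytoplasmic phosphatases of ERK, and their order of groups differed from that of Dusp6. Dusp7 stood at 6.06, 6.02, 5.28 and 3.49 RPKM in Tubastatin A, 16.7, 17.8 and 14.1 RPKM in vehicle and 3.89, 2.84 and 3.54 RPKM in fresh libraries. Dusp9 stood at 2.82, 3.08, 3.16 and 2.33 RPKM in Tubastatin A, 11.4, 12.3 and 12.1 RPKM in vehicle and 0.290, 0.610 and 0.615 RPKM in fresh libraries. For both genes vehicle libraries were highest, the opposite of the fall of Dusp6 in culture. Dusp7 fell by 1.49 and Dusp9 by 1.75 with Tubastatin A relative to vehicle (adjusted p = 1.47e-05 and 3.18e-07), and they rose by 1.96 and 3.11 in vehicle relative to fresh (adjusted p = 1.52e-06 and 2.79e-09). Together Dusp6, Dusp7 and Dusp9 summed to 19.4 ± 1.70 RPKM in Tubastatin A, 41.7 ± 2.29 RPKM in vehicle and 37.9 ± 4.13 RPKM in fresh cells. With the authors' scaling the sums of vehicle and fresh libraries overlapped, although the genes that made them up differed. Scaling by the reads in the table divides fresh libraries by 1.36 to 1.38 and vehicle libraries by 0.889 to 0.908. That would place every vehicle sum above every fresh one, so the overlap depends on the scaling.

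**Figure D5:**
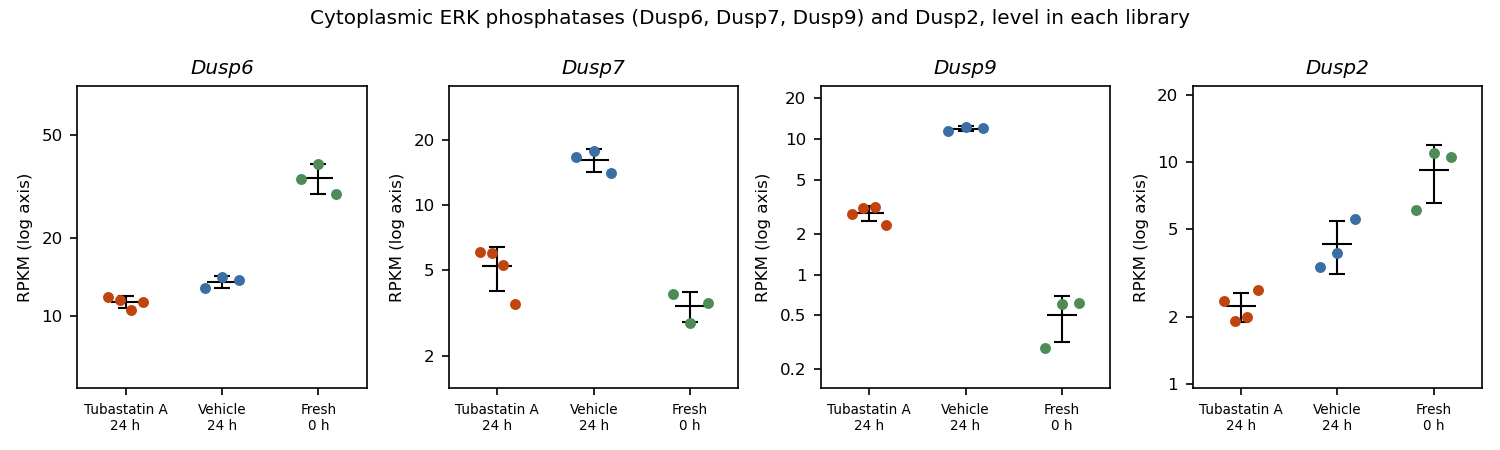
Level in RPKM (log axis, scaled per gene) of Dusp6, its relatives Dusp7 and Dusp9, and the nuclear phosphatase Dusp2, with 1 point per library and the mean ± SD per group. Dusp7 and Dusp9 are highest in vehicle libraries, and Dusp6 and Dusp2 in fresh libraries.

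Dusp2, an inducible nuclear phosphatase like Dusp1, did not share the rise of Dusp1 under Tubastatin A. It had 2.38, 1.92, 2.02 and 2.65 RPKM in Tubastatin A, 3.36, 3.90 and 5.57 RPKM in vehicle and 6.11, 11.0 and 10.6 RPKM in fresh libraries, with no overlap between groups. It fell by 0.69 with Tubastatin A relative to vehicle (adjusted p = 0.0106) and by 0.94 in vehicle relative to fresh (adjusted p = 0.00195). Dusp13, an atypical phosphatase known from skeletal muscle and testis, rose by 1.21 with Tubastatin A relative to vehicle (adjusted p = 1.31e-06), at 1.47 to 2.36 RPKM against 0.228 to 0.247 RPKM. Dusp26 was at 0.236 to 0.611 RPKM in Tubastatin A and 1.14 to 1.81 RPKM in fresh libraries, and all 3 vehicle libraries stood at the same lowest value of the table for that gene. Dusp27 reached 3.81 RPKM in Tubastatin A replicate 2 and 0.036 to 0.060 RPKM in the other 3 Tubastatin A libraries. In that same library 10 measured markers of mature muscle fibres summed to 397.0 RPKM, against 6.31 to 7.43 RPKM in the others. In it Dusp4, Dusp5, Dusp8 and Dusp16 were lowest and Dusp14 highest of the 4 Tubastatin A libraries, and the 7 calls of Tubastatin A against vehicle held without it.

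Genes of MAP kinases, not all of them known targets of these phosphatases, were also measured. Of all genes, 29.6% were called higher and 29.7% lower with Tubastatin A relative to vehicle, and 32.0% and 35.0% in vehicle relative to fresh. Of 12 measured MAP kinases, 3 rose and 5 fell with Tubastatin A relative to vehicle, with a median log2 change of -0.13 beside 0.02 for all genes. Mapk9, which encodes the JNK2 kinase, rose by 1.46 to 32.5 ± 1.83 RPKM, against 11.2 ± 0.659 RPKM in vehicle. Mapk3, which encodes ERK1, fell by 0.91, Mapk6, which encodes ERK3, by 1.65, and Mapk13, which encodes the p38 delta kinase, by 1.26. In vehicle relative to fresh 8 rose and 2 fell, among them Mapk6 at 1.84 and Mapk13 at 1.78 higher. One layer above, 1 of 7 MAP kinase kinases rose and 2 fell with Tubastatin A relative to vehicle, against 2 and 3 without fresh replicate 1 or fresh replicate 2, and 3 and 3 when only those groups were fitted. Map2k1, which encodes MEK1, the kinase that activates ERK, rose by 1.47 to 113.1 ± 6.59 RPKM, against 40.3 ± 2.20 RPKM in vehicle. Of 28 genes of Ras, Raf and the first kinase layer, 8 rose and 7 fell in that comparison. Map3k8, a kinase upstream of MEK, stood at 1.44 ± 0.216 RPKM in Tubastatin A, 0.284 ± 0.0484 RPKM in vehicle and 18.1 ± 2.58 RPKM in fresh cells, the same order of groups as Dusp1 and Dusp8.

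Other inhibitors of the ERK pathway were split. Of 9 measured feedback inhibitors 2 rose and 2 fell with Tubastatin A relative to vehicle (4 and 3 when only those groups were fitted), and in vehicle relative to fresh 2 rose and 6 fell, with a median of -1.77 beside -0.03. Errfi1, an inhibitor of the epidermal growth factor receptor, fell by 1.34 with Tubastatin A to 100.4 ± 5.37 RPKM, against 255.6 ± 15.2 RPKM in vehicle. Spry4, a Sprouty inhibitor of receptor tyrosine kinase signalling, rose by 0.35, close to the threshold (adjusted p = 0.0468). Of 12 transcripts known to follow ERK activity, 4 rose and 4 fell with Tubastatin A relative to vehicle. Among the 12, Ier3 and Egr1 also belong to the 24 immediate early and heat shock genes described below. Ier3 rose by 4.26, to 127.5 ± 11.8 RPKM against 5.80 ± 1.51 RPKM in vehicle, and Etv5, an ETS factor, rose by 1.37. Ccnd1, the cyclin D1 of G1 phase, fell by 3.94 and Phlda1 by 1.96. The 4 that did not pass were Etv1 at 0.13, Fosl1 at -0.21, Plaur at -0.25 and Myc at 0.36. Of 7 measured phosphatases of other families that act on MAP kinases, 1 rose with Tubastatin A relative to vehicle, Ppm1b, by 0.62, and 4 fell in vehicle relative to fresh, among them Ppp2ca, the catalytic subunit of protein phosphatase 2A, by 1.54. With upper quartile scaling or reads in the table, 4 of the 7 were higher with Tubastatin A. Without fresh replicate 1, 3 rose with Tubastatin A relative to vehicle and all 7 fell in vehicle relative to fresh.

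Immediate early and heat shock genes, which respond to cell isolation, had as a sum the same order of groups as Dusp1, though not every gene did. Their list of 24 summed to 2888 to 3684 RPKM in Tubastatin A, 1593 to 1723 RPKM in vehicle and 33092 to 66585 RPKM in fresh libraries, fresh replicate 1 being highest. Of the 24, 16 rose, 2 fell (Klf2 by 2.37) and 6 were not called with Tubastatin A relative to vehicle. Their median log2 change was 0.74 beside 0.02 for all genes, of which 29.6% were called higher and 29.7% lower. All 24 fell in vehicle relative to fresh, where 35.0% of all genes were called lower. The part of these 24 genes in the Dusp1 and Dusp8 levels was not tested. In fresh replicate 1 Dusp1, Dusp4, Dusp8 and Dusp14 were highest of the 3 fresh libraries and Dusp5 and Dusp10 lowest, and no called member changed its call without that library.

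The genes most like each member were found by the root mean square difference of log2(RPKM + 1), centred on its mean over the 10 libraries, among 9871 genes. For Dusp1 they were Gem, a small GTP-binding protein (0.20), and Dnajb1, a co-chaperone of HSP70 (0.29). Gem averaged 57.7 RPKM in Tubastatin A, 15.2 RPKM in vehicle and 1051 RPKM in fresh cells. For Dusp8 they were Edn3, the peptide endothelin 3 (0.25), and Frat2, a Wnt pathway protein that binds GSK3 (0.25). For Dusp10 they were Tagln2, an actin-binding protein (0.18), and Jdp2, a repressor of the AP-1 family (0.20), with Jdp2 at 12.6, 38.4 and 96.3 RPKM in Tubastatin A, vehicle and fresh cells. For Dusp4 and Dusp5 they were Evi5l with Acss2, and Riok3 with Azi2. For Dusp6, Dusp14 and Dusp16 they were Ppp1ccb with Pccb, Pex10 with Lias, and Rybp with Zim1. Dusp4 and Dusp5 were each other's closest among the 8 genes (0.28), while the member closest to Dusp10, Dusp6, lay at 0.68.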

How the data were processed

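RNA of 10 libraries from sorted mouse muscle stem cells was measured by sequencing. Per the labels' protocols, 5 ng of RNA went into cDNA synthesis (SMART-Seq v4) and both fragment ends were read over 150 bp. The submitters' processing notes name the build mm10 and, without versions, edgeR, STAR, Trim Galore, Subread and its featureCounts. The authors deposited RPKM values for 12803 genes, which are relative to library sizes they had scaled. Reads in the table over that size came to 1.39 to 1.41 in fresh and 0.83 to 0.93 in cultured libraries.

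From the RPKM, log2(RPKM + 1) was fitted with limma 3.58.1 in R 4.3.3, in 1 model of the 3 groups, letting the variance follow the level and with no filter on low values. Genes were called at an adjusted p (Benjamini-Hochberg, 12803 genes) under 0.05. The fit was tested on simulated data in which each gene had the same spread in every group. That test could not show what unequal spreads between groups do to the calls. Adding 1 RPKM makes folds of weakly expressed genes too small. Intervals are 95% intervals of the fit for a difference between group means. They rest on a spread between libraries that is shared by the 3 groups and drawn towards that of genes at a like level.

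With exon lengths of GENCODE M21, 12682 symbols (99.1%) could be matched, and 11648 of these (91.8%) gave whole reads within 0.05 in every library. These reads were used for depth and for limma's voom as an alternative (11629 genes). Python 3.11.15 with numpy 2.4.6, pandas 2.3.3 and matplotlib 3.10.9 read the tables. Promoters were taken from RefSeq and searched on both strands, and a palindromic match was counted once.

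The members and the gene lists were chosen with earlier results of these data known. All 8 members and any other dual specificity phosphatase may be named, of each other list up to 4 called genes per comparison with the lowest p, and the 2 genes closest in pattern to each member. Hdac6, Myod1 and the 4 transcripts known to follow ERK activity that were not called with Tubastatin A relative to vehicle are named as well. Alternatives were other pseudocounts, filters on low levels, 3 other scalings of libraries, limma without the trend, a fit of 2 groups at a time, the replicate number as a block, voom, and each library left out.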

Additional observations from a re-analysis of the deposited data

How the results depend on the processing

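Under 21 alternatives, 479 of 501 values for the 8 genes kept their direction and their side of the threshold. Not every alternative could turn a direction. Limma without the trend, filters and fits of 2 groups at a time leave a gene's log2 change as it was, so only its call could move. The same holds where the library left out belongs to the group not compared. With libraries left out in turn, the genes called among the 8 numbered 7 to 8 for Tubastatin A against vehicle, 7 to 8 for vehicle against fresh and 5 to 6 for Tubastatin A against fresh, and over all genes 6588 to 8341, 7868 to 8912 and 7768 to 8540. Scaling by the reads in the table, 8 of the 8 were called for Tubastatin A against fresh, 3 higher and 5 lower. That scaling moved the median log2 change of all genes to 0.34 for vehicle against fresh and 0.40 for Tubastatin A against fresh, beside -0.03 for both. It gave 6365 genes higher and 2905 lower for vehicle against fresh, beside 4096 and 4484, and 6916 higher and 2590 lower for Tubastatin A against fresh, beside 3811 and 4503. Relative to fresh cells, directions of small changes therefore depend on the scaling, and the cause was not tested.

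The changes that turned round were all in Tubastatin A against fresh, where none had passed. Dusp4 became 0.06 with median-of-ratios scaling, 0.16 with upper quartile scaling and 0.61 with reads in the table, and ranged from -0.11 to 0.14 with a library left out (0.03 without Tubastatin A replicate 2, 0.0005 without replicate 3 and 0.14 without fresh replicate 1). Dusp5 became 0.0088, 0.12 and 0.60 under the same scalings and ranged from -0.22 to 0.15, the highest without fresh replicate 3. Dusp14 became 0.44 with reads in the table. Kept to genes with a mean of at least 5 RPKM, 4450, 5020 and 4709 genes were called in the 3 comparisons, since fewer were tested (6881), and Dusp16 was not among them.

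The labels do not say whether libraries of the same number share an animal, a litter or a day, and the numbers were not taken as pairs. The correlation of deviations between libraries of the same number ran from -0.17 to 0.33, with the 3 pairs of number 1 at 0.20 to 0.33, and not every library was closest to its own number. With the replicate number as a block, 7, 7 and 5 of the 8 genes were called, as without it, and 7136, 8503 and 7888 genes in all. Voom on recovered reads called 7434, 8044 and 7730 of 11629 genes. Dusp8 in vehicle cells, at 176, 184 and 259 reads, was the least deeply measured.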

Other observations

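Errors are SD over 4 Tubastatin A, 3 vehicle and 3 fresh libraries, and calls are those of limma at an adjusted p under 0.05. Genes further along the MAP kinase pathway moved in both directions. Between Tubastatin A and vehicle, 29.6% of all genes were called higher and 29.7% lower. The counts of kinases, scaffolds and transcription factors below are to be read beside these shares. Of 10 measured kinases activated by MAP kinases, 5 rose and 2 fell with Tubastatin A relative to vehicle, with a median log2 change of 0.23 beside 0.02 for all genes. Mknk1, a kinase of the translation factor eIF4E, rose by 1.11, at 12.2 ± 0.898 RPKM in Tubastatin A and 5.11 ± 0.302 RPKM in vehicle cells. Rps6ka1, which encodes the ERK-activated kinase RSK1, stood at 10.1 ± 1.34 RPKM in Tubastatin A, 4.88 ± 0.597 RPKM in vehicle and 0.989 ± 0.358 RPKM in fresh cells. It rose by 0.91 with Tubastatin A relative to vehicle and by 1.57 in vehicle relative to fresh.

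Of 11 measured scaffold proteins 5 rose and 2 fell with Tubastatin A relative to vehicle. Mapk8ip1, the JNK scaffold JIP1, rose by 1.71, at 6.94 ± 0.869 RPKM in Tubastatin A and 1.41 ± 0.114 RPKM in vehicle cells, and fell by 1.48 in vehicle relative to fresh cells, which held 6.16 ± 2.99 RPKM. Of 13 transcription factors acted on by MAP kinases 4 rose and 4 fell with Tubastatin A relative to vehicle. Srf, the factor that binds CArG boxes, fell by 1.16, at 20.1 ± 2.21 RPKM in Tubastatin A and 45.9 ± 4.19 RPKM in vehicle cells. Ets2 fell by 2.91 in vehicle relative to fresh, at 13.2 ± 1.98 RPKM in vehicle and 106.7 ± 23.5 RPKM in fresh cells. Relative to fresh cells, 4 of the 11 scaffolds were higher with Tubastatin A and 2 lower, but 9 and 1 when libraries were scaled by the reads in the table.

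Summed markers of fibro-adipogenic, Schwann and erythroid cells were highest in fresh libraries. The summed RPKM of 10 fibro-adipogenic progenitor markers was 87.9 to 120.4 in Tubastatin A, 70.7 to 85.6 in vehicle and 1807 to 2256 in fresh libraries. For 7 tenocyte markers it was 8.44 to 14.2, 67.2 to 78.4 and 47.1 to 70.4 in these groups. Scx carried the difference between the cultured groups, at a mean of 4.14 RPKM in Tubastatin A and 70.5 RPKM in vehicle cells. It was the 1 gene of the 7 that fell, and Mkx and Cilp2 rose. In vehicle relative to fresh, 6 of these 7 markers were lower and 1 higher. Pericyte and smooth muscle markers (9 measured) summed to 64.6 in Tubastatin A replicate 2, to 13.98 to 14.99 in the other 3 Tubastatin A libraries, to 175.6 to 241.2 in vehicle and to 206.3 to 252.9 in fresh libraries. Acta2 carried most of that sum, at a mean of 23.0 RPKM in Tubastatin A and 211.9 RPKM in vehicle cells. It fell together with Tagln, while Mcam and Pdgfrb rose. In vehicle relative to fresh, 7 of these 9 markers were lower and 2 were not called. For 4 Schwann cell markers the sums were 2.37 to 3.15, 0.926 to 1.26 and 11.4 to 17.4, and for 2 erythroid markers 0.0262 to 0.130, 0.0884 to 0.230 and 7.24 to 29.5. The part of these cells in the phosphatase values was not tested.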
